A study of Homo sapiens with 6 samples.

Results

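The genes described here encode 10 secreted proteins that kill or starve microbes or restrain proteases on epithelial surfaces, and they were chosen by name from a table of 58735 genes. They are SLPI and PI3 (protease inhibitors), LCN2 and LTF (iron withholding), ADM (a peptide hormone that also kills microbes), DEFB1 and DEFB4A (beta-defensins), RNASE7 (an antimicrobial ribonuclease), LYZ (lysozyme) and CAMP (the cathelicidin precursor). The RNA came from SZ95 cells, an immortalised line derived from human sebaceous gland. In 3 libraries the cells had received a plasmid for overexpression of TRPV3, a warmth-activated calcium-permeable channel (genotype label TRPV3 overexpression), and in 3 they had received a mock plasmid (genotype label WT), with a time label of 24 h for all 6. The question named for the series is the part TRPV3 plays in sebocyte inflammation. All libraries come from a single cell line, without immune cells in the culture as far as the labels say, and the sources used here do not give the promoter of the plasmid. Only RNA was measured, so nothing below bears on secreted protein.

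Sebaceous glands and keratinocytes coat the skin with antimicrobial proteins, some made at all times and some induced by bacteria or cytokines through NF-kB, C/EBP and AP-1 transcription factors. LCN2 (lipocalin 2) captures bacterial siderophores, the molecules with which bacteria fetch iron, and its induction by interleukin 17 and NF-kB is a textbook case. SLPI and PI3 (elafin) carry the disulfide-rich WAP domain, block neutrophil elastase and are also antimicrobial. ADM (adrenomedullin) dilates vessels through the receptor CALCRL with RAMP coreceptors, is induced by hypoxia and is present in skin glands.

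Promoter sequence is shown for LCN2 and ADM, the tested genes with an entry in the RefSeq promoter table used here (5 of the 10 genes had one), because these are induced genes and such factors act at promoters. Each stretch runs from 250 bases before to 50 bases after the RefSeq start on GRCh38.p14, plus strand, at chr9:128149203-128149502 for LCN2 and chr11:10304823-10305122 for ADM. Capitals mark, in LCN2, an NF-kB-like stretch (GGG, any 5 bases, CC) that matches on both strands in overlap, a C/EBP-like TTNCNNAA and the AP-1 motif TGANTCA, and, in ADM, an NF-kB-like match on the minus strand and TATAAA.
LCN2: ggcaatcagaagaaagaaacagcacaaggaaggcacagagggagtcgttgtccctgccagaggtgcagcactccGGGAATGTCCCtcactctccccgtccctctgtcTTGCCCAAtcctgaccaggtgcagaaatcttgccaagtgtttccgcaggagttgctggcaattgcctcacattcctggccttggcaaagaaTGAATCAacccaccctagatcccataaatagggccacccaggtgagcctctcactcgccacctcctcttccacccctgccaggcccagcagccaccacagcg
ADM: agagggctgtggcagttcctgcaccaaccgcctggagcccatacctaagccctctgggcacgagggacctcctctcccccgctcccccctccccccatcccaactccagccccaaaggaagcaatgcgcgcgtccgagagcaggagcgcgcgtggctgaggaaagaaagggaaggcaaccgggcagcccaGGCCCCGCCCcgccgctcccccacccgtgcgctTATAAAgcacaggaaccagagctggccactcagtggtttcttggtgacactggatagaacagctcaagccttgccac
The LCN2 matches began 176 (NF-kB-like, plus strand), 175 (minus strand), 143 (C/EBP-like) and 52 (AP-1) bases before the start. Those of ADM began 60 (NF-kB-like) and 27 (TATAAA) bases before it. The ADM window held no ACGTG, a form of the core of the hypoxia element. GCGTG, the other form, was not among the letters searched, and it occurs in the printed ADM sequence. Both strands were searched. Of 35114 promoter windows of the same length, 58.7% held the NF-kB-like letters, 36.8% TTNCNNAA, 7.7% TGANTCA, 21.4% ACGTG and 11.5% TATAAA, so the NF-kB-like and C/EBP-like letters are common. A match is a stretch of letters and not a shown binding site.

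The libraries held 18.4, 17.9 and 17.4 M reads with the TRPV3 plasmid and 17.5, 16 and 17.4 M reads with the mock plasmid. These depths were recovered from the FPKM values (fragments scaled by gene length and a library size). That library size was not the recovered depth. For a gene of 1000 bases, 3 reads gave 0.170 FPKM in TRPV3 replicate 1 and 0.168 FPKM in the shallower TRPV3 replicate 2. They gave 0.165 FPKM in mock replicate 3 and 0.171 FPKM in mock replicate 1, at nearly equal depth. Against shares of recovered reads, FPKM thus set TRPV3 replicate 1 higher and mock replicate 3 lower. TRPV3 itself was at 536, 671 and 738 FPKM in the TRPV3 libraries and 0.437, 0.359 and 0.415 FPKM in the mock libraries, high only under the TRPV3 labels (log2 fold change 8.84, SE 0.12, limma adjusted p = 2.7e-07). A pair of libraries stood apart. In TRPV3 replicate 1 short genes were high: the median difference from the mock mean, on log2(FPKM + 1), was 0.60 for the 104 tested protein-coding genes under 1000 bases and -0.12 for the 6838 of at least 4000 bases, against 0.06 and 0.00 in TRPV3 replicate 2 and 0.04 and 0.01 in TRPV3 replicate 3. In mock replicate 3 many silent genes had reads: 34467 genes had at least 1 read, against 22311 to 23072 in the other libraries, and 2170 protein-coding genes were read in that library alone, against 27 to 53 for each of the others. Results are therefore given with and without these libraries, and what lies behind either profile was not tested. Keratin 7, a marker of sebaceous gland cells, was among the abundant transcripts (552 ± 89.3 FPKM with TRPV3 and 513 ± 15.4 FPKM with mock, SD, n = 3 each), whereas AWAT2, a wax ester synthase of mature sebocytes chosen after its values were seen, had 0 reads in every library.

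Of the 10 genes, 4 were expressed at a mean of at least 1 FPKM and were tested, and 6 were near silent. SLPI, LCN2 and PI3 were abundant, ranking 36, 115 and 459 by mean FPKM among 19951 protein-coding genes, and ADM was low at rank 9591. The order SLPI, LCN2, PI3, ADM was the same in all 6 libraries, on FPKM, which is per length. None of the 4 passed the adjusted limma test (linear model on log2(FPKM + 1), call at an adjusted p under 0.05 over 12177 genes): 0 of 4 were called, where 0.0411% of all genes tested were, and 0 of 4 had an unadjusted p under 0.05, where 3.28% of genes were higher and 1.21% lower at that level. limma-voom on the recovered reads also called 0 of 4, and 0.0411% of all genes. In all 4 the fitted fold change was above 0, by 0.18 to 0.38 on the log2 scale with all libraries and by 0.11 to 0.18 without TRPV3 replicate 1. The median over all genes tested was 0.01 with all libraries and 0.0080 without that library. Of all genes tested, 53.0% had a fold change above 0 with all libraries and 53.5% without TRPV3 replicate 1.

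**Figure D1:**
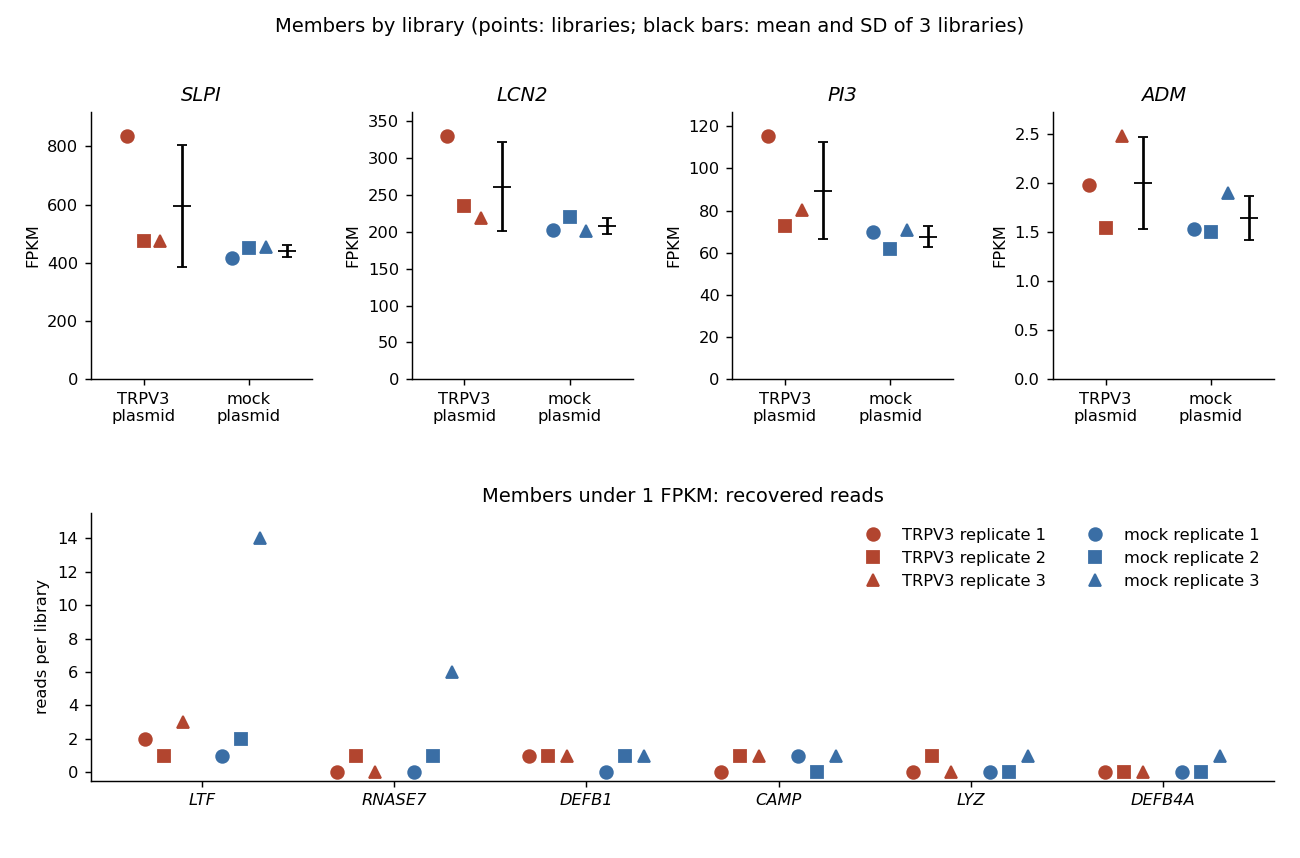
Upper panels: FPKM of SLPI, LCN2, PI3 and ADM in each library (points; black bars, mean and SD of 3), TRPV3 plasmid left of mock plasmid. TRPV3 replicate 1 is the highest library for SLPI, LCN2 and PI3. Lower panel: recovered reads per library of the 6 near-silent genes, where mock replicate 3 holds 14 LTF and 6 RNASE7 reads and no other library exceeds 3.

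SLPI, which inhibits elastase and cathepsin G and is the most abundant of the set, was set apart in 1 TRPV3 library. SLPI (ENSG00000124107, chromosome 20, 45252239 to 45254564, minus strand, hg38, 596 exonic bases) was at 836, 474 and 477 FPKM in TRPV3 replicates 1 to 3 and at 415, 452 and 454 FPKM in mock replicates 1 to 3. These values rest on 8796, 5055 and 4970 reads with TRPV3 and 4347, 4373 and 4931 with mock. Replicate 1 stood at 1.76 times the mean of the other TRPV3 libraries, and these sat just above all mock libraries, so the groups did not overlap on FPKM. The means were 596 ± 209 FPKM with TRPV3 and 440 ± 21.8 FPKM with mock (SD, n = 3 each), a log2 fold change of 0.38 (SE 0.22, 95% interval -0.15 to 0.91, limma adjusted p = 0.755). Without TRPV3 replicate 1 it was 0.11 (SE 0.06, limma adjusted p = 0.767), a fold of 1.08 with an interval of 0.985 to 1.18. The exact permutation p (two-sided) was 0.1, which is as low as 3 against 3 libraries can go, and 0.2 without TRPV3 replicate 1.

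PI3 (elafin), a WAP inhibitor of elastase and proteinase 3, showed a like pattern at a lower level. PI3 (ENSG00000124102, chromosome 20, 45174876 to 45176544, plus strand, 577 exonic bases) was at 115, 72.4 and 80.4 FPKM with TRPV3 and 70.1, 61.8 and 70.9 FPKM with mock, from 1175, 748 and 812 reads with TRPV3 and 710, 579 and 745 reads with mock. On FPKM all TRPV3 libraries were higher than all mock libraries, the closest pair being TRPV3 replicate 2 and mock replicate 3. The means were 89.4 ± 22.9 FPKM with TRPV3 and 67.6 ± 5.0 FPKM with mock (SD, n = 3 each). The log2 fold change was 0.37 (SE 0.17, 95% interval -0.04 to 0.78, limma adjusted p = 0.755), and 0.18 (SE 0.08, -0.01 to 0.36, limma adjusted p = 0.723) without TRPV3 replicate 1, a fold of 1.13 (0.996 to 1.28). The exact two-sided permutation p was 0.1 with all libraries and 0.1 without that library, in each case the smallest possible.

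LCN2, the siderophore trap, had groups that met on FPKM. LCN2 (ENSG00000148346, chromosome 9, 128149071 to 128153455, plus strand, 1598 exonic bases) was at 330, 235 and 219 FPKM with TRPV3 and 203, 220 and 201 FPKM with mock. The reads behind them numbered 9312, 6728 and 6112 with TRPV3 and 5700, 5708 and 5843 with mock. TRPV3 replicate 1 was again the highest, and TRPV3 replicate 3 lay just under mock replicate 2. The means were 261 ± 60.2 FPKM with TRPV3 and 208 ± 10.6 FPKM with mock (SD, n = 3 each), a log2 fold change of 0.31 (SE 0.16, 95% interval -0.07 to 0.69, limma adjusted p = 0.755). Without TRPV3 replicate 1 it was 0.13 (SE 0.06, -0.02 to 0.27, limma adjusted p = 0.755), a fold of 1.09 (0.988 to 1.20). The exact two-sided permutation p was 0.2, and 0.3 without that library.

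ADM, the one peptide hormone of the set, was low and did not share the high value of TRPV3 replicate 1. ADM (ENSG00000148926, chromosome 11, 10304680 to 10307397, plus strand, 2718 exonic bases) was at 1.98, 1.54 and 2.48 FPKM with TRPV3 and 1.53, 1.5 and 1.90 FPKM with mock. Only 95, 75 and 118 reads with TRPV3 and 73, 66 and 94 with mock stand behind these values, and the groups overlapped. The means were 2.0 ± 0.470 FPKM with TRPV3 and 1.64 ± 0.223 FPKM with mock (SD, n = 3 each). The log2 fold change was 0.18 (SE 0.14, 95% interval -0.15 to 0.50, limma adjusted p = 0.755) with all libraries and 0.17 (SE 0.15, limma adjusted p = 0.861) without TRPV3 replicate 1, on a log2(FPKM + 1) scale that understates the change of so low a gene.

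On FPKM the groups did not overlap, TRPV3 above mock, in 2 of the 4 genes tested, SLPI and PI3, where 9.49% of all genes tested did so. Among the 104 protein-coding genes under 1000 bases, the length class of both, the share was 20.2%. Without TRPV3 replicate 1 the same 2 genes did not overlap on FPKM, against 14.1% of all genes and 22.1% of the short ones. With a fitted length trend subtracted from each library SLPI and LCN2 did not overlap, as 8.31% of all genes tested, and PI3 and ADM did. That correction was partial for short genes, as the values below show. As a share of recovered reads both SLPI and PI3 overlapped. SLPI took 0.02825% in TRPV3 replicate 2 and 0.02836% in mock replicate 3, and PI3 0.00418% and 0.00428%. With TPM scaling SLPI and PI3 overlapped as well, and LCN2 did not. The separation of SLPI and PI3 thus depended on the scaling. The 3 abundant transcripts kept similar ratios: SLPI was 2.53, 2.01 and 2.18 times LCN2 in the TRPV3 libraries and 2.04, 2.05 and 2.26 times in the mock libraries, on FPKM. The LCN2 to PI3 ratio was 2.86, 3.25 and 2.72 with TRPV3 and 2.90, 3.56 and 2.83 with mock. Together the 4 tested genes took 0.106%, 0.0705% and 0.0690% of reads in the TRPV3 libraries and 0.0620%, 0.0670% and 0.0668% in the mock libraries.

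TRPV3 replicate 1 was the highest of the 6 libraries for SLPI, LCN2 and PI3, as it was for 40.9% of all genes tested and for 84.6% of the protein-coding genes under 1000 bases. SLPI lay 0.92 above the mock mean in that library on the log2 scale, higher than all but 4 of the 104 genes of its length class, whose median was 0.60. PI3 lay 0.77 above, with 17 of the 104 higher. LCN2 lay 0.67 above, with 121 of 791 genes of 1000 to under 2000 bases higher and a class median of 0.47. ADM lay 0.18 above, with 1648 of 2892 genes of 2000 to under 4000 bases higher and a class median of 0.22. In TRPV3 replicates 2 and 3 the differences were 0.11 and 0.11 for SLPI, 0.10 and 0.25 for PI3, 0.18 and 0.07 for LCN2 and -0.05 and 0.40 for ADM. With the fitted length trend subtracted, TRPV3 replicate 1 stood 0.63 above the mock mean for SLPI, 0.47 for PI3 and 0.30 for LCN2. ADM was then at -0.07. For SLPI, PI3 and LCN2 that trend took off less than the class medians of 0.60 and 0.47. The correction was therefore partial for genes of these lengths. The part of the length profile in the fold changes of SLPI, PI3 and LCN2 was not tested beyond these values.

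**Figure D2:**
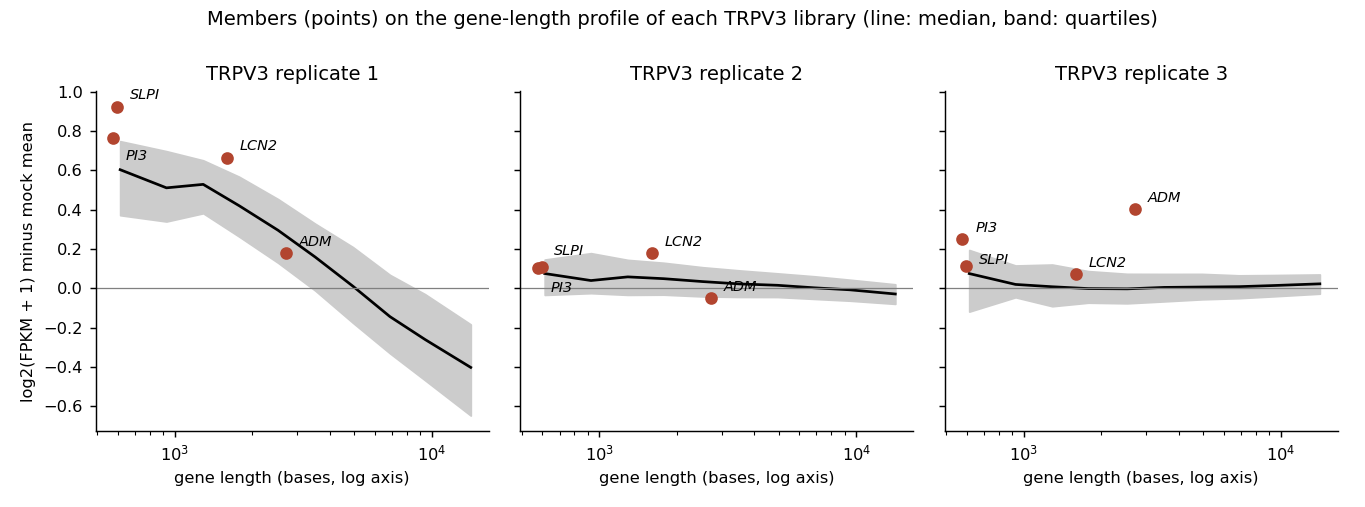
Difference from the mock mean on log2(FPKM + 1) against gene length (log axis) in each TRPV3 library; line and band, median and quartiles of tested protein-coding genes in length bins; red points, the 4 tested genes. SLPI, PI3 and LCN2 lie above the median line in TRPV3 replicate 1, and ADM lies below it.

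Leaving out mock replicate 3 gave log2 fold changes of 0.40 for SLPI, 0.41 for PI3, 0.28 for LCN2 and 0.24 for ADM (limma adjusted p = 0.831 for each); 0 of 4 were called, where 0.0247% of genes were. Without both that library and TRPV3 replicate 1, a setting chosen after the data were seen, SLPI was at 0.13 (SE 0.05), PI3 at 0.21 (SE 0.08), LCN2 at 0.10 (SE 0.06) and ADM at 0.24 (SE 0.16). In that fit of 2 against 2 libraries SLPI and PI3 had an unadjusted limma p under 0.05 (0.0408 and 0.0333), as 4.58% of genes did in the upward direction, and their limma adjusted p-values were 0.608 and 0.573; 0.074% of genes were called there. PI3 also had an unadjusted limma p under 0.05 with the replicate number as a block and without TRPV3 replicate 2, where 2.37% and 3.65% of genes did so in the upward direction. LCN2 had one without TRPV3 replicate 3, where 4.89% did.

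**Figure D3:**
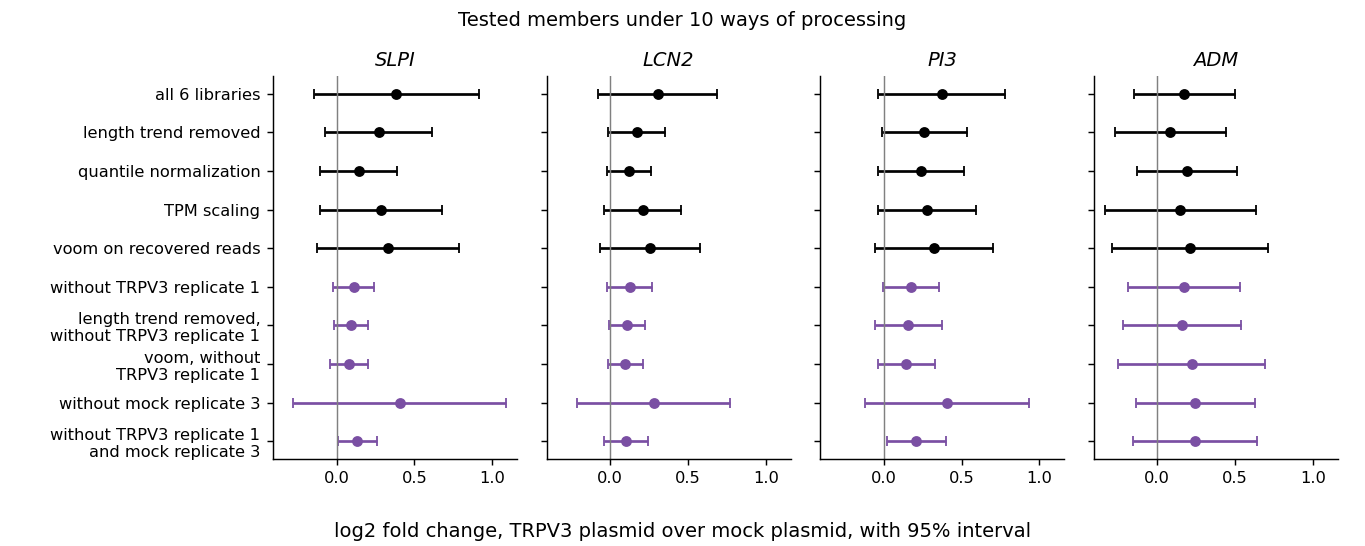
Log2 fold change, TRPV3 plasmid over mock plasmid, with 95% intervals, for SLPI, LCN2, PI3 and ADM under 10 ways of processing (purple, a library left out). SLPI is at 0.38 with all 6 libraries and 0.11 without TRPV3 replicate 1; every point lies above 0, and no adjusted p is under 0.05.

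The remaining genes, all classic skin or neutrophil antimicrobials, were at the edge of detection. LTF (lactoferrin, an iron-binding protein of neutrophil granules and glandular secretions; ENSG00000012223, chromosome 3, 46435645 to 46485234, minus strand) had 2, 1 and 3 reads with TRPV3 and 1, 2 and 14 with mock. RNASE7 (ENSG00000165799, chromosome 14, 21042226 to 21044234, plus strand), a major antimicrobial ribonuclease of skin, had 0, 1 and 0 reads with TRPV3 and 0, 1 and 6 with mock. For both genes mock replicate 3, the library with reads for many silent genes, was the highest. DEFB1 (ENSG00000164825, chromosome 8), a constitutive epithelial defensin, had 1, 1 and 1 reads with TRPV3 and 0, 1 and 1 with mock. DEFB4A (ENSG00000171711, chromosome 8), the inducible beta-defensin 2, had 0 reads in all TRPV3 libraries and 0, 0 and 1 with mock. Its near-identical copy DEFB4B, looked up for that reason outside the rule for named genes, had 0 reads throughout, and reads could not be divided between such copies with certainty. CAMP (ENSG00000164047, chromosome 3, 48223347 to 48225491, plus strand) had 0, 1 and 1 reads with TRPV3 and 1, 0 and 1 with mock. LYZ (ENSG00000090382, chromosome 12, 69348341 to 69354234, plus strand), which cuts bacterial cell walls, had 0, 1 and 0 reads with TRPV3 and 0, 0 and 1 with mock.

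Summed, these 6 genes had 3, 5 and 5 reads in the TRPV3 libraries and 2, 4 and 24 in the mock libraries. Only in mock replicate 3 did all 6 have a read. Among genes with the same behaviour, MPO, a neutrophil enzyme, had 6 reads there and 0 elsewhere, PTPRC, the common leucocyte antigen, had 8 and 0, and LRP2, an endocytic receptor, had 23 and 0 (chosen after their values were seen). A count of 0 still allows 3 reads, which for DEFB4A is 0.433 to 0.486 FPKM by library and for the longer LTF 0.0388 to 0.0435 FPKM. This covers counting error only, and no difference in these 6 genes was detectable at this depth. No exon of the 10 genes overlapped another gene's exon except 599 bases that LYZ shares with AC020656.1 on the other strand, which had 0 reads.

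SLPI and PI3 lie 75694 bases apart in the WAP gene cluster of chromosome 20, with the seminal genes SEMG1 and SEMG2 between them. Of 17 WAP or Kunitz inhibitor genes in the window examined around them, 3 were expressed at a mean of at least 1 FPKM: SLPI, PI3 and WFDC2, an epithelial WAP protein. The other 14 were under 1 FPKM, the highest of them WFDC3 at a mean of 0.241 FPKM (chosen after its values were seen). WFDC2 was at 173 ± 49.2 FPKM with TRPV3 and 139.5 ± 3.67 FPKM with mock (SD, n = 3 each; log2 fold change 0.27, limma adjusted p = 0.755, and 0.05 without TRPV3 replicate 1).

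Likeness over the 6 libraries was measured as Pearson's r of log2(FPKM + 1), and described only, since all genes share the libraries and their length profile. SLPI was most like AVPI1, EPCAM and CISD2 (r = 0.998 each), and 954 of 10625 protein-coding genes had r above 0.95. LCN2 was most like NOL7 (r = 0.9995), DAD1 (0.999) and CD63 (0.999), with 856 genes above 0.95, and PI3 most like CREB3 (0.998), YRDC (0.997) and LEMD2 (0.996), with 163. Over the 5 libraries without TRPV3 replicate 1 these 9 values lay between 0.960 and 0.997. Between the genes of the set r was 0.972 for SLPI and LCN2, 0.936 for SLPI and PI3 and 0.882 for LCN2 and PI3. ADM was apart, with r of 0.325 to SLPI, 0.186 to LCN2 and 0.514 to PI3.

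Genes of the same pathways were read from 14 further lists. In all of them 0 genes were called by limma, with all libraries or without TRPV3 replicate 1, against 0.0411% and 0.0657% of all genes tested. limma-voom without TRPV3 replicate 1 called 0.542% of genes, among them 2 list genes. These were ZC3H12A (log2 fold change 0.41, SE 0.08, adjusted p = 0.0203), which encodes the ribonuclease regnase-1 that degrades inflammatory mRNAs, and RXRA (-0.26, SE 0.05, adjusted p = 0.0403), the retinoid X receptor that pairs with the vitamin D receptor.

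Among other antimicrobial proteins 7 of 41 listed genes were tested, with a median log2 fold change of 0.42, which was 0.12 without TRPV3 replicate 1 and -0.01 over all list genes with any read. S100A9, a subunit of the metal-binding protein calprotectin, led by level with 124, 82.8 and 73.0 FPKM in the TRPV3 libraries and 66.3, 72.2 and 64.2 FPKM in the mock libraries (log2 fold change 0.42, limma adjusted p = 0.755, and 0.20 without TRPV3 replicate 1). Its partner S100A8, chosen after its values were seen, was at 3.13 ± 1.07 FPKM with TRPV3 and 1.98 ± 0.301 FPKM with mock (SD, n = 3 each). The log2 fold change of S100A8 was 0.45 (limma adjusted p = 0.755), and 0.25 without TRPV3 replicate 1. Its groups overlapped, on 77, 41 and 49 reads with TRPV3 and 32, 38 and 33 with mock. LYPD3, which the list and its median also hold though an antimicrobial role is not established, was at 14.2 ± 1.35 FPKM with TRPV3 and 13.5 ± 0.263 FPKM with mock.

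Protease inhibitors outside the SERPIN family had 12 of 36 genes tested and a median of 0.15 (0.05 without TRPV3 replicate 1). Beside WFDC2, the cystatin CST6, which blocks cysteine proteases of the cornifying epidermis, was at 139 ± 38.4 FPKM with TRPV3 and 108 ± 10.3 FPKM with mock (log2 fold change 0.33, and 0.12 without TRPV3 replicate 1). Serine proteases of neutrophils and skin had 8 of 17 genes tested and a median of 0.03, which was below 0 under 9 of 19 alternatives. ST14 (matriptase) was at 82.1 ± 2.99 FPKM with TRPV3 and 78.6 ± 1.47 FPKM with mock, and PRSS8 (prostasin) at 42.3 ± 4.96 FPKM with TRPV3 and 42.4 ± 3.82 FPKM with mock. The neutrophil targets of SLPI and PI3 had few reads: ELANE (elastase) had 0 in every TRPV3 library and 0, 0 and 1 with mock, and CTSG (cathepsin G) 0 in every TRPV3 library and 0, 0 and 5 with mock (both chosen after their values were seen).

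Iron handling genes, the setting in which LCN2 and LTF act, had 12 of 20 tested and a median of -0.04 (0.02 without TRPV3 replicate 1). FTH1 and FTL, the ferritin chains that store iron, were at 1340 ± 321 and 743 ± 195 FPKM with TRPV3 and at 1192 ± 15.2 and 631 ± 31.3 FPKM with mock. Their log2 fold changes were 0.14 and 0.20, and -0.04 and 0.00 without TRPV3 replicate 1. MMP9, the gelatinase that LCN2 binds, was at 8.49, 8.76 and 8.44 FPKM with TRPV3 and 7.07, 6.70 and 7.82 FPKM with mock, with no overlap (log2 fold change 0.22, SE 0.08, limma adjusted p = 0.755; chosen after its values were seen). Groups did not overlap in the upward direction for 9.49% of all genes tested.

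The adrenomedullin system had 5 of 14 genes tested and a median of -0.12, between -0.25 and -0.04 over the alternatives. PAM, the enzyme that amidates adrenomedullin, was at 13.2 ± 0.999 FPKM with TRPV3 and 14.4 ± 0.472 FPKM with mock, and ACKR3, a scavenger receptor, at 2.37 ± 0.294 FPKM with TRPV3 and 2.66 ± 0.388 FPKM with mock. The receptor CALCRL had 4, 4 and 5 reads with TRPV3 and 6, 14 and 7 with mock (chosen after its values were seen). HIF target genes, among which ADM is usually counted, had 22 of 25 tested and a median of -0.01. ENO1 was at 556 ± 74.9 FPKM with TRPV3 and 509 ± 5.61 FPKM with mock, and LDHA at 171 ± 15.4 FPKM with TRPV3 and 162 ± 8.75 FPKM with mock.

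The list for interleukin 17 and NF-kB input to antimicrobial genes had 14 of 21 tested and a median of 0.04. CEBPB was at 191 ± 33.4 FPKM with TRPV3 and 173 ± 13.2 FPKM with mock, and the epithelial factor ELF3 at 36.2 ± 2.89 FPKM with TRPV3 and 35.1 ± 0.800 FPKM with mock. The list also holds ZC3H12A, whose product degrades inflammatory mRNAs. ZC3H12A was at 17.1, 19.1 and 19.1 FPKM with TRPV3 and 14.1, 13.1 and 15 FPKM with mock, with no overlap, as for 9.49% of all genes tested in the upward direction. By limma its log2 fold change was 0.37 (SE 0.08, adjusted p = 0.584) with all libraries and 0.41 (SE 0.06, adjusted p = 0.115) without TRPV3 replicate 1. In TRPV3 replicate 1 it was lower than in the other TRPV3 libraries, unlike SLPI, LCN2 and PI3.

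Vitamin D genes, through which CAMP is induced, had 7 of 12 tested and a median of -0.05. RXRA was at 11.3, 11.3 and 11.4 FPKM with TRPV3 and 13.8, 13.5 and 12.8 FPKM with mock (limma log2 fold change -0.22, SE 0.07, adjusted p = 0.755). HBEGF, an epidermal growth factor receptor ligand, was at 3.46, 3.85 and 4.13 FPKM with TRPV3 and 2.41, 2.12 and 2.82 FPKM with mock, with no overlap (limma log2 fold change 0.48, SE 0.11, adjusted p = 0.547; chosen after its values were seen). Upward, 9.49% of all genes tested had no overlap. The ribonuclease inhibition list, relevant to RNASE7, had 4 of 5 genes tested and a median of -0.02, with RNH1 at 12.8 ± 1.74 FPKM with TRPV3 and 12.2 ± 1.03 FPKM with mock, and RNASET2 at 1.71 ± 0.316 FPKM with TRPV3 and 1.68 ± 0.113 FPKM with mock.

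Markers of other cells that make these proteins were summed by library. Leucocyte markers, 12 genes, summed to 1.41 to 1.54 FPKM with TRPV3 and 1.33 to 2.22 FPKM with mock. LAPTM5 was the highest of them (1.31 ± 0.207 FPKM with TRPV3 and 1.34 ± 0.144 FPKM with mock, SD, n = 3 each), FCER1G had 0, 1 and 1 reads with TRPV3 and 1, 0 and 6 with mock, and CD163, chosen after its values were seen, had 0 in every library. Fibroblast markers, 8 genes, summed to 2.11 to 2.25 FPKM with TRPV3 and 2.47 to 3.07 FPKM with mock. Most was COL1A1 (2.09 ± 0.0652 FPKM with TRPV3 and 2.49 ± 0.249 FPKM with mock, SD, n = 3 each), while PDGFRB had 6, 13 and 8 reads with TRPV3 and 20, 12 and 17 with mock. Serous gland markers, 11 genes, summed to 0.519 to 1.33 FPKM with TRPV3 and 0.573 to 2.01 FPKM with mock, led by ZG16B with 21, 15 and 26 reads with TRPV3 and 7, 22 and 26 with mock, and PRR4 with 0, 0 and 13 reads with TRPV3 and 7, 7 and 9 with mock. The part of such cells in the values above was not tested. Sebocyte markers, 15 genes with 10 tested and a median of 0.08, summed to 902 to 990 FPKM with TRPV3 and 881 to 924 FPKM with mock. Most of this was keratin 7, whose levels are given above. The other sebocyte gene of highest level, the desaturase SCD, was at 219 ± 42.6 FPKM with TRPV3 and 227 ± 22.4 FPKM with mock. Keratinocyte markers had 6 of 12 tested and a median of 0.19, with KRT5 at 149 ± 5.24 FPKM with TRPV3 and 160 ± 15.1 FPKM with mock and KRT10 at 19.9 ± 1.06 FPKM with TRPV3 and 16 ± 2.58 FPKM with mock. In bulk RNA, more cells of a kind and more transcript per cell cannot be told apart.

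**Figure D4:**
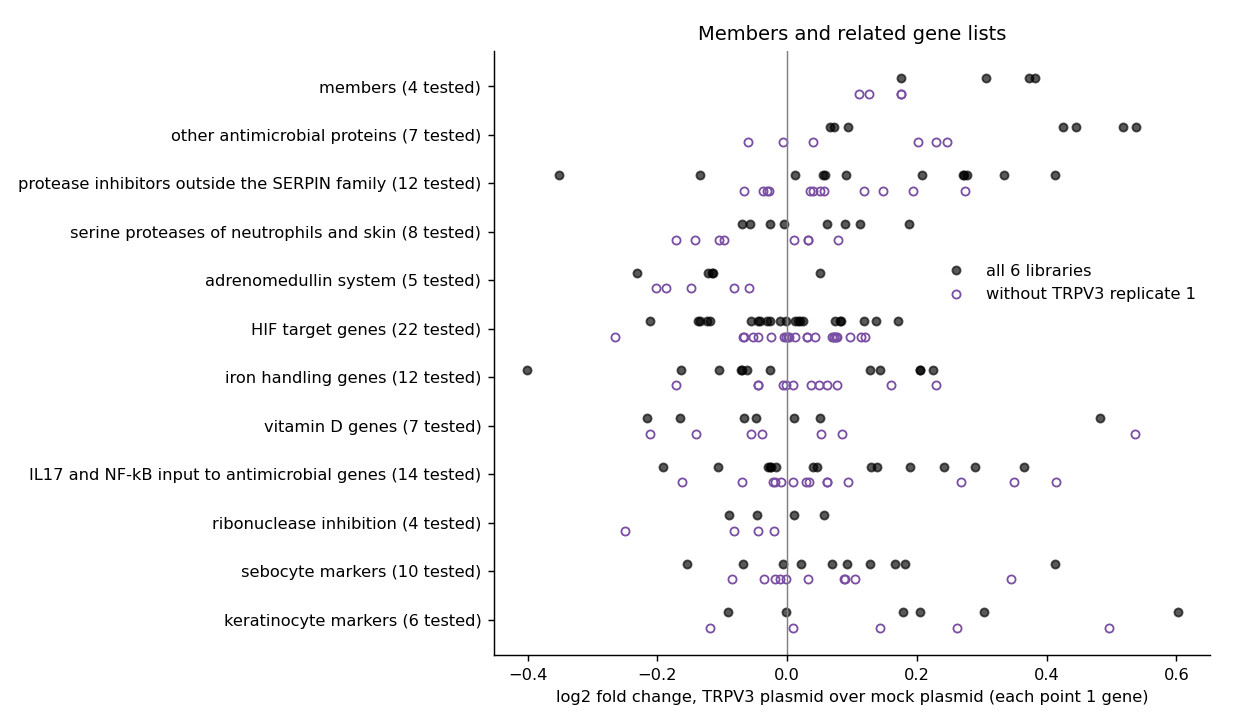
Log2 fold change, TRPV3 plasmid over mock plasmid, of each tested gene (1 point a gene) in the set and in the related lists; filled, all 6 libraries; open, without TRPV3 replicate 1. The 4 genes of the set lie between 0.18 and 0.38 with all libraries and between 0.11 and 0.18 without TRPV3 replicate 1.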

How the data were processed

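RNA of 6 SZ95 libraries, 3 per plasmid, was sequenced; groups and replicate numbers come from the labels, and the 10 genes and 14 lists were chosen with earlier results of these data known. The submitters' processing notes name HISAT2 2.0.5 and hg38; the sources used here do not give how reads were counted or whether by strand. Per the file headers, the deposited values are FPKM, listed with gene lengths equal to merged GENCODE exons for the genes described. FPKM times length gave whole reads for 100% of values (tolerance 0.02), which supplied the depths and the read counts quoted; depth of 16 to 18.4 M reads sets the precision.

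Values were tested as log2(FPKM + 1) for the 12177 genes that averaged 1 FPKM or more, with R 4.3.3 and limma 3.58.1 (group as the only term, empirical Bayes with a mean-variance trend, Benjamini-Hochberg adjustment over all genes tested); the test was tried on simulated data. All adjusted p-values are from limma. Replicates are biological per the series' design text. Genes named are the 10, TRPV3, for each list its called genes and its 2 genes of highest mean FPKM, and the 3 genes most like each of the 3 most abundant of the 10; 1 gene that this rule names is not reported here, and others are marked in the text as chosen after their values were seen or are named for their position or likeness to one of the 10 (SEMG1, SEMG2, AC020656.1, DEFB4B). Alternatives were another pseudocount (0.1), another filter (none, or 5 FPKM), other scaling (median-of-ratios, TPM, quantile), no trend, a replicate block, each library left out, limma-voom on recovered reads, and a correction for gene length (lowess with span 0.3); leaving out both TRPV3 replicate 1 and mock replicate 3, or correcting length without TRPV3 replicate 1, was chosen after the data were seen. Promoter sequences are from RefSeq. Figures used Python 3.11.15 and matplotlib 3.10.9.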

Additional observations from a re-analysis of the deposited data

How the results depend on the processing

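Of the 4 tested genes 0 were called under each of 19 alternatives (3 were tested with the filter of 5 FPKM, which removes ADM), and every fitted fold change stayed above 0. These settings reuse the same libraries and are not independent checks of the sign. The log2 fold change ran from 0.08 to 0.52 for SLPI, 0.15 to 0.51 for PI3, 0.10 to 0.42 for LCN2 and 0.06 to 0.29 for ADM, with limma adjusted p-values of 0.506 to 0.966. At an unadjusted limma p under 0.05 stood PI3 with the replicate block (0.0455) and without TRPV3 replicate 2 (0.0236), LCN2 without TRPV3 replicate 3 (0.0401), and SLPI and PI3 without both TRPV3 replicate 1 and mock replicate 3. Genes called numbered between 2 and 8 when 1 library was left out, against 5 with all. They numbered 3 with a filter of 5 FPKM, 2 with no filter, 3 with the replicate block, 8 with the length trend removed and without TRPV3 replicate 1, 9 without TRPV3 replicate 1 and mock replicate 3, and 66 with voom without TRPV3 replicate 1; the cause was not tested. The pathway lists had 0 called genes, and 2 with voom without TRPV3 replicate 1. Several list medians lay near 0 and took the other sign in some of 19 alternatives. These numbered 9 for serine proteases, 7 for ribonuclease inhibition, 5 for HIF targets and 4 each for iron handling and interleukin 17 input. They numbered 3 for sebocyte markers, 2 for vitamin D genes and 1 each for other antimicrobial proteins and keratinocyte markers. The protease inhibitor and adrenomedullin medians kept their sign. Genes at the smallest exact permutation p numbered 2 of 4, SLPI and PI3, and 1 with TPM scaling, which was LCN2. With the length trend removed they numbered 2, SLPI and LCN2. An edgeR fit that had been planned was not run, because the deposited unit is FPKM. Depth limits the 6 near-silent genes, none above 14 reads in any library, and 3 libraries a group limit all p-values. Libraries with the same replicate number did not deviate together (correlations -0.272, -0.0387 and -0.168 over 12177 genes). The profiles of TRPV3 replicate 1 and mock replicate 3 enter these deviations, so the correlations cannot settle whether the numbers pair libraries. The replicate block left 0 of the 4 genes called.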
